A study of Homo sapiens with 14 samples.

Results

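The forkhead factor FOXA1 was lowered by 2 routes in 22Rv1, an established human prostate cancer line, and the gene expression changes that followed were set against each other. One route was induced degradation of a tagged FOXA1 protein for 24 h, and the other was knockdown with a lentiviral hairpin. The 4 groups of these 2 experiments were taken from the labels and held 8 of the 14 RNA sequencing libraries of the series, 2 in each group. The control hairpin group (shCtrl) had the genotype WT and received control lentiviruses, and the FOXA1 hairpin group (shFOXA1) had the genotype WT, FOXA1 knockdown. The groups labelled FOXA1_dTAG_0h and FOXA1_dTAG_24h, here 0 h and 24 h, had the genotype WT, FOXA1_dTAG, and so carried the tag before any treatment. All were grown in RPMI medium with fetal bovine serum, penicillin and streptomycin. The treatment label says that these tagged cells received dTAG or DMSO and does not say which group received which, nor the dose. The titles name no tagged group held for 24 h without degrader and no untagged group with it, so loss of FOXA1 cannot be told apart from 24 h of further culture or from the degrader itself. The labels do not say whether the tagged line was 1 clone, how long after infection the hairpin cells were collected, how many hairpins were used, or whether the 2 libraries of a group came from separate cultures, so the p-values speak only of the spread between libraries. Titles of the shCtrl libraries say 22Rv2 where their other labels say 22Rv1.

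FOXA1 is a pioneer transcription factor: its winged-helix domain binds recognition sequences on nucleosomal DNA and opens chromatin for other factors. In prostate luminal cells it works beside hormone receptors and HOXB13 and sets where they bind. The dTAG system fuses a small domain to a protein, and a degrader molecule that binds it sends the protein to the ubiquitin-proteasome system, while a hairpin lowers the mRNA that makes it, and the protein then falls as existing copies turn over.

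Library totals ran from 32.1 M to 36.5 M counts. The luminal markers KRT8, KRT18, EPCAM and HOXB13 were present in all 8 libraries, with HOXB13 between 239 and 447 CPM of the library total. Several defining markers of other cell types were at or near 0: TP63 (basal) had at most 1 count, NEUROD1 and INSM1 (neuroendocrine) at most 2 and 3, CDH5 (endothelial) at most 2 and CD3E (leukocyte) at most 1. The neuroendocrine genes SYP (52.8 to 74.1 CPM) and CHGA (0 to 20.9 CPM, highest in shCtrl) and the collagen gene COL1A1 (7.17 to 17.0 CPM) were not. The libraries of shFOXA1 differed from each other more than those of the other groups did, with a chi-square per degree of freedom of 11.8 against 2.85 to 4.04. Below, levels are in counts-per-million (CPM) scaled over the 8 libraries, each value after ± is an SE for 2 libraries per group, and "difference" means the 24 h log2 change minus the knockdown log2 change. Levels in the tagged cells and in the hairpin cells came from tables deposited separately and were never tested across tables.

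FOXA1 mRNA was measured at 401 and 433 CPM in shCtrl and at 297 and 304 CPM in shFOXA1. It was measured at 172 and 169 CPM at 0 h and at 206 and 197 CPM at 24 h. Both shFOXA1 libraries were below both shCtrl libraries, and both 24 h libraries were above both 0 h libraries. The transcript fell by 0.47 ± 0.061 on the log2 scale in the knockdown (adjusted p = 0.000175) while at 24 h it rose by 0.24 ± 0.039 (adjusted p = 2.28e-06), a difference of 0.72 ± 0.072 (adjusted p = 2.97e-07). The transcript checks the hairpin label, and its fall there was partial, from a mean of 417 CPM to 300 CPM. It checks nothing at 24 h, where the degrader acts on protein, and no protein measurement was analysed here. The depth of FOXA1 protein loss is therefore not known for either route. The 2 experiments also differ in the tag, the tool and the treatment. In every difference between routes below, these cannot be told apart.

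More transcripts passed the test at 24 h than in the knockdown, and of the 3041 genes that passed in both, 80.0% moved the same way. Of 20795 genes tested, 9216 changed at 24 h (44.3% of those tested). At 24 h 4375 were higher (21.0%) and 4841 lower (23.3%). In the knockdown 4495 genes changed (21.6%), 2175 higher (10.5%) and 2320 lower (11.2%). Each route was called on the spread of its own libraries, which was widest in shFOXA1. With both routes called from the joint fit, the gap was smaller, with 7800 genes at 24 h and 5950 in the knockdown. The difference between the routes passed the test for 4712 genes (22.7%), with the 24 h change the higher one for 1966 (9.45%) and the lower one for 2746 (13.2%). With each gene's GC content and transcript length corrected for, that split was 2532 and 2346, and the split at 24 h was 5206 and 4268.

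Every tested gene was placed in 1 class by these calls. A total of 2434 genes were shared, called in both routes with the same sign (11.7%). They were 1112 genes that rose (5.35%) and 1322 that fell (6.36%). Shared genes made up 26.4% of the 24 h calls and 54.1% of the knockdown calls, and for 1783 of them the size of the change did not differ by the test. Another 607 genes were opposite, called in both with opposite signs (2.92%). They were 299 genes higher at 24 h and lower in the knockdown (1.44%), and 308 the other way (1.48%). The difference passed the test for all 607, which 2 called changes of opposite sign nearly require. Degradation-only genes, called at 24 h, not called in the knockdown and with a called difference, numbered 2449 (11.8%), 1016 higher (4.89%) and 1433 lower (6.89%). Knockdown-only genes numbered 783 (3.77%), 396 higher (1.9%) and 387 lower (1.86%). With both routes called from the joint fit there were 2052 degradation-only and 1063 knockdown-only genes. A further 4397 genes were called in 1 route with no called difference, 3726 at 24 h (17.9%) and 671 in the knockdown (3.23%), so whether they belong to 1 route or both is not resolved, and 10125 (48.7%) were called in neither.

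Calls with a change of at least 2-fold were fewer, with 1566 genes at 24 h (7.53%), 572 in the knockdown (2.75%) and 157 in both, while the difference was called and at least 2-fold for 1065 (5.12%). Of the 157, 123 had the same sign (70 higher and 53 lower). Of the 572, 53.3% were also called at 24 h, and of the 1566, 30.3% were also called in the knockdown. Across all tested genes the 2 log2 changes had a Pearson r of 0.236 and a Spearman rho of 0.289, and 61.5% had the same sign. Among the 10422 genes with a mean of at least 10 CPM, r was 0.391. These coefficients are descriptions across genes, which are not independent, and the 2 comparisons share no library.

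**Figure D1:**
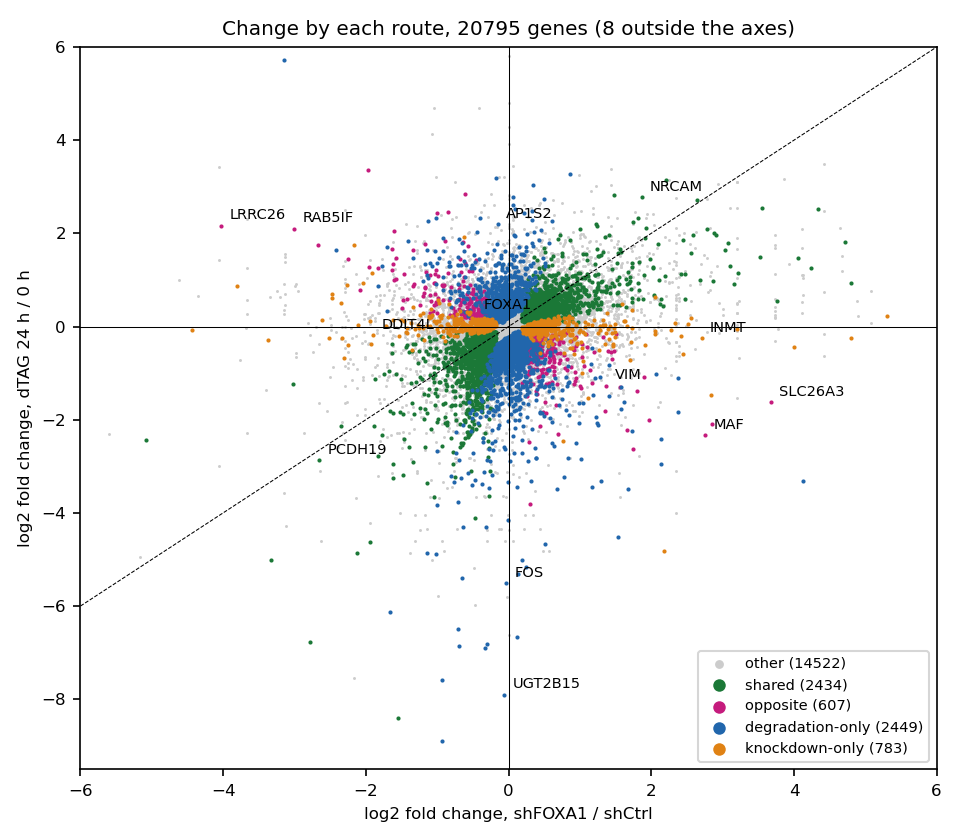
Each point is 1 of 20795 tested genes, with its log2 change in the knockdown (shFOXA1 against shCtrl) on the horizontal axis and its log2 change at 24 h (against 0 h) on the vertical axis; 8 genes lie outside the axes. The colours mark 2434 shared, 607 opposite, 2449 degradation-only and 783 knockdown-only genes, and the degradation-only genes spread along the vertical axis further than the knockdown-only genes spread along the horizontal one.

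Of the shared genes that rose, NRCAM, an adhesion molecule of the immunoglobulin family, was at 23.8 and 25 CPM at 0 h and 163 and 173 CPM at 24 h, and at 11.9 and 11.7 CPM in shCtrl and 32.6 and 53.3 CPM in shFOXA1. The groups did not overlap in either table, as naming a shared gene required. That held for 2432 of the 2434, as calls in both routes nearly require. It also held for 2193 of the 10125 genes called in neither route. The 24 h libraries stood highest of all 8. NRCAM rose by 2.78 ± 0.051 at 24 h (adjusted p = 1.36e-35) and by 1.87 ± 0.31 in the knockdown (adjusted p = 0.0377), and the difference of 0.93 ± 0.37 did not pass (adjusted p = 0.174). SLCO2A1, a prostaglandin transporter, went from 9.25 and 10.6 CPM to 50.4 and 50.5 CPM at 24 h, and from 1.12 and 1.14 CPM to 2.96 and 4.98 CPM in the knockdown. Its changes were 2.34 ± 0.077 and 1.81 ± 0.28, with groups again apart in both tables. KRT15, a keratin of basal epithelium, was at 15.7 and 13.8 CPM at 0 h, 45.7 and 46.0 CPM at 24 h, 1.93 and 1.63 CPM in shCtrl and 9.88 and 19.3 CPM in shFOXA1. The spread between the shFOXA1 libraries was wide for KRT15, and its knockdown change of 3.04 ± 0.43 (adjusted p = 0.0148) was the larger of its 2 changes, against 1.63 ± 0.073 at 24 h. Without 1 of the shCtrl libraries the knockdown call was lost for KRT15 (adjusted p = 0.144 without the first and 0.188 without the second) and for NRCAM (0.211 and 0.253). LMAN1L, a membrane lectin related to the cargo receptor LMAN1, rose by 2.10 ± 0.11 and 2.78 ± 0.49. The other named shared genes that rose were G0S2, an inhibitor of triglyceride lipase, CABP1, a calcium-binding protein, IP6K3, an inositol phosphate kinase, and BTG1-DT, a divergent transcript of BTG1. For IP6K3 the knockdown change rests on 3 counts in shCtrl against 81 in shFOXA1, a ratio of 28.2 with an exact 95% interval from 9.31 to 140.0 that covers counting error only. Knockdown calls of G0S2 (0.0846 and 0.111) and BTG1-DT (0.244 and 0.293) were also lost without 1 of the shCtrl libraries, and the 24 h call of G0S2 was lost without the first 24 h library (0.0584).

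Among the shared genes that fell, PCDH19, a protocadherin adhesion molecule, showed like-sized falls from very unlike starting levels. It was at 56.7 and 56.0 CPM at 0 h and 7.71 CPM in both 24 h libraries, and at 6.31 and 5.15 CPM in shCtrl and 0.632 and 1.18 CPM in shFOXA1. Control and depleted libraries were apart in each table. PCDH19 fell by 2.88 ± 0.076 at 24 h (adjusted p = 4.19e-30) and by 2.65 ± 0.27 in the knockdown (adjusted p = 3.41e-05), and the difference of -0.21 ± 0.26 did not pass (adjusted p = 0.619). RAB27B, a small GTPase of vesicle secretion, was at 30.5 and 32.9 CPM at 0 h, 7.84 and 9.71 CPM at 24 h, 32.6 and 36.2 CPM in shCtrl and 12.6 and 9.77 CPM in shFOXA1. Here the control levels of the 2 tables lay close together as well. RAB27B fell by 1.86 ± 0.091 and 1.61 ± 0.12, a difference of -0.23 ± 0.17 (adjusted p = 0.367). AGR2, a protein disulfide isomerase of secretory epithelia, was at 46.3 and 46.7 CPM at 0 h and 9.73 and 8.97 CPM at 24 h, against 1.90 and 2.30 CPM in shCtrl and 0.775 and 0.444 CPM in shFOXA1. Its falls of 2.32 ± 0.078 and 1.77 ± 0.32 did not differ by the test (adjusted p = 0.202).

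Other genes of this class fell by unequal amounts. TRGC1, the T cell receptor gamma constant region 1, fell from 53.4 and 53.5 CPM to 0.217 and 0.0922 CPM at 24 h, and from 6.65 and 6.81 CPM to 3.04 and 1.54 CPM in the knockdown. Its difference of -6.86 (adjusted p = 6.99e-08) was one of the widest among shared genes named here. In prostate cells transcripts of this locus encode TARP, and reads of the 2 cannot be told apart here. The knockdown call of TRGC1 was lost without the second shCtrl library (adjusted p = 0.0537). KCNJ8 and ABCC9, neighbouring genes for the pore and the regulatory subunit of a potassium channel gated by ATP, fell together by 1.84 and 3.26 at 24 h and by 1.52 and 1.62 in the knockdown. Both knockdown calls were lost without the second shCtrl library, with changes of -1.63 and -1.13. KCNJ8 also lost its call without the first (-1.41), and ABCC9 without the second shFOXA1 library (-1.06). With all libraries kept, ABCC9 lost its knockdown call with DESeq2 (adjusted p = 0.0507) and with limma voom (0.0537). HLA-DQB2 and MIR3153 complete the named shared genes that fell. HLA-DQB2 has close copies among class II genes, the MIR3153 row may hold reads of a gene it lies in, and their knockdown calls were lost without a shCtrl library (0.150 and 0.175 for HLA-DQB2, 0.117 without the second for MIR3153).

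Opposite genes passed the test in both routes and so have measured directions on each side. Those chosen by size of change also had to have groups that did not overlap in either table. That held for 606 of the 607, as calls in both routes nearly require, and for 2193 of the 10125 genes called in neither. MAF, a basic leucine zipper factor, was at 136 and 140 CPM at 0 h and 26.9 and 28.1 CPM at 24 h, but at 9.77 and 10.0 CPM in shCtrl and 63.3 and 69.6 CPM in shFOXA1. Both depleted groups lay between the 2 control groups, so the levels moved towards each other. MAF fell by 2.33 ± 0.051 at 24 h (adjusted p = 3.32e-33) and rose by 2.75 ± 0.088 in the knockdown (adjusted p = 1.54e-09), a difference of -5.07 ± 0.097 (adjusted p = 3.38e-19). MAFTRR, a long noncoding RNA next to MAF, went the same 2 ways, with changes of -1.82 and 1.36. Its knockdown call was lost with DESeq2 and all libraries kept (adjusted p = 0.0708). That call was also lost without the second shCtrl library (a change of 0.84) or the first shFOXA1 library (1.11). SLC26A3, an intestinal chloride and bicarbonate exchanger, was at 9.67 and 10.2 CPM at 0 h, 3.31 and 3.20 CPM at 24 h, 0.922 and 0.949 CPM in shCtrl and 9.99 and 13.9 CPM in shFOXA1. Groups did not overlap within either table, and the changes were -1.62 ± 0.14 and 3.68 ± 0.22.

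VIM, the intermediate filament protein of mesenchymal cells, started from similar levels in both tables. It was at 17.8 and 16.6 CPM at 0 h and 16.9 and 15.3 CPM in shCtrl, and then at 7.46 and 6.88 CPM at 24 h and 36.0 and 47.0 CPM in shFOXA1. From a like level it thus fell by 1.27 ± 0.10 in one table (adjusted p = 7.03e-14) and rose by 1.37 ± 0.13 in the other (adjusted p = 7.65e-05), a difference of -2.63 ± 0.17 (adjusted p = 2.28e-09). GDNF, a ligand of the RET receptor complex, fell from 34.6 and 35.3 CPM to 16.6 CPM in both 24 h libraries and rose from 7.29 and 6.64 CPM to 21.8 and 29.8 CPM in the knockdown. DOCK8 and PREX2, exchange factors that activate small GTPases, changed by -1.21 and -1.31 at 24 h and by 1.17 and 1.56 in the knockdown.

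In the other direction, RAB5IF was at 4.57 and 6.02 CPM at 0 h and 20.6 and 25.2 CPM at 24 h, and at 17.2 and 23.4 CPM in shCtrl and 2.30 and 2.72 CPM in shFOXA1. Within each table the groups did not overlap, and the 24 h and shCtrl libraries were the higher ones. RAB5IF rose by 2.10 ± 0.12 (adjusted p = 3.66e-18) and fell by 3.01 ± 0.18 in the knockdown (adjusted p = 1.61e-06), a difference of 5.12 ± 0.27 (adjusted p = 3.2e-08). LRRC26, an auxiliary subunit of a large-conductance potassium channel, was at 0.564 and 0.913 CPM at 0 h, 2.45 and 4.24 CPM at 24 h, 3.00 and 2.36 CPM in shCtrl and 0.172 and 0.148 CPM in shFOXA1. These low levels gave changes of 2.16 ± 0.29 and -4.03 ± 0.37. CEBPB, a basic leucine zipper factor of stress and differentiation, was at 8.75 and 8.56 CPM at 0 h, 26.7 and 27.7 CPM at 24 h, 15.5 and 20 CPM in shCtrl and 7.12 and 6.81 CPM in shFOXA1. It rose by 1.65 ± 0.088 and fell by 1.34 ± 0.14 in the knockdown, with a difference of 3.00 ± 0.17 (adjusted p = 4.25e-11). SLIT2, a secreted ligand of ROBO receptors, changed by 2.06 ± 0.20 and -1.60 ± 0.25.

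GET4, a factor for inserting tail-anchored proteins, NDUFAF8, an assembly factor of respiratory complex I, C4orf48 and C19orf81 rose by 1.34 to 1.75 at 24 h and fell in the knockdown. Their knockdown changes were -1.57 for GET4, -1.62 for NDUFAF8, -2.67 for C4orf48 and -2.26 for C19orf81. C4orf48 lost its difference without the first (adjusted p = 0.0549) or second 0 h library (0.0632), and with limma voom it lost both its knockdown call (0.0533) and its difference (0.0600). Several of these transcripts are rich in G and C: the GC content was 74.7% for LRRC26, 73.2% for C4orf48, 66.8% for C19orf81, 66.2% for CEBPB and 63.0% for NDUFAF8, against a median of 48.6% over all tested genes. After the correction for GC and length, opposite genes split into 410 higher and 249 lower at 24 h, and these 5 stayed opposite. The part of GC content in the result was not tested further.

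**Figure D2:**
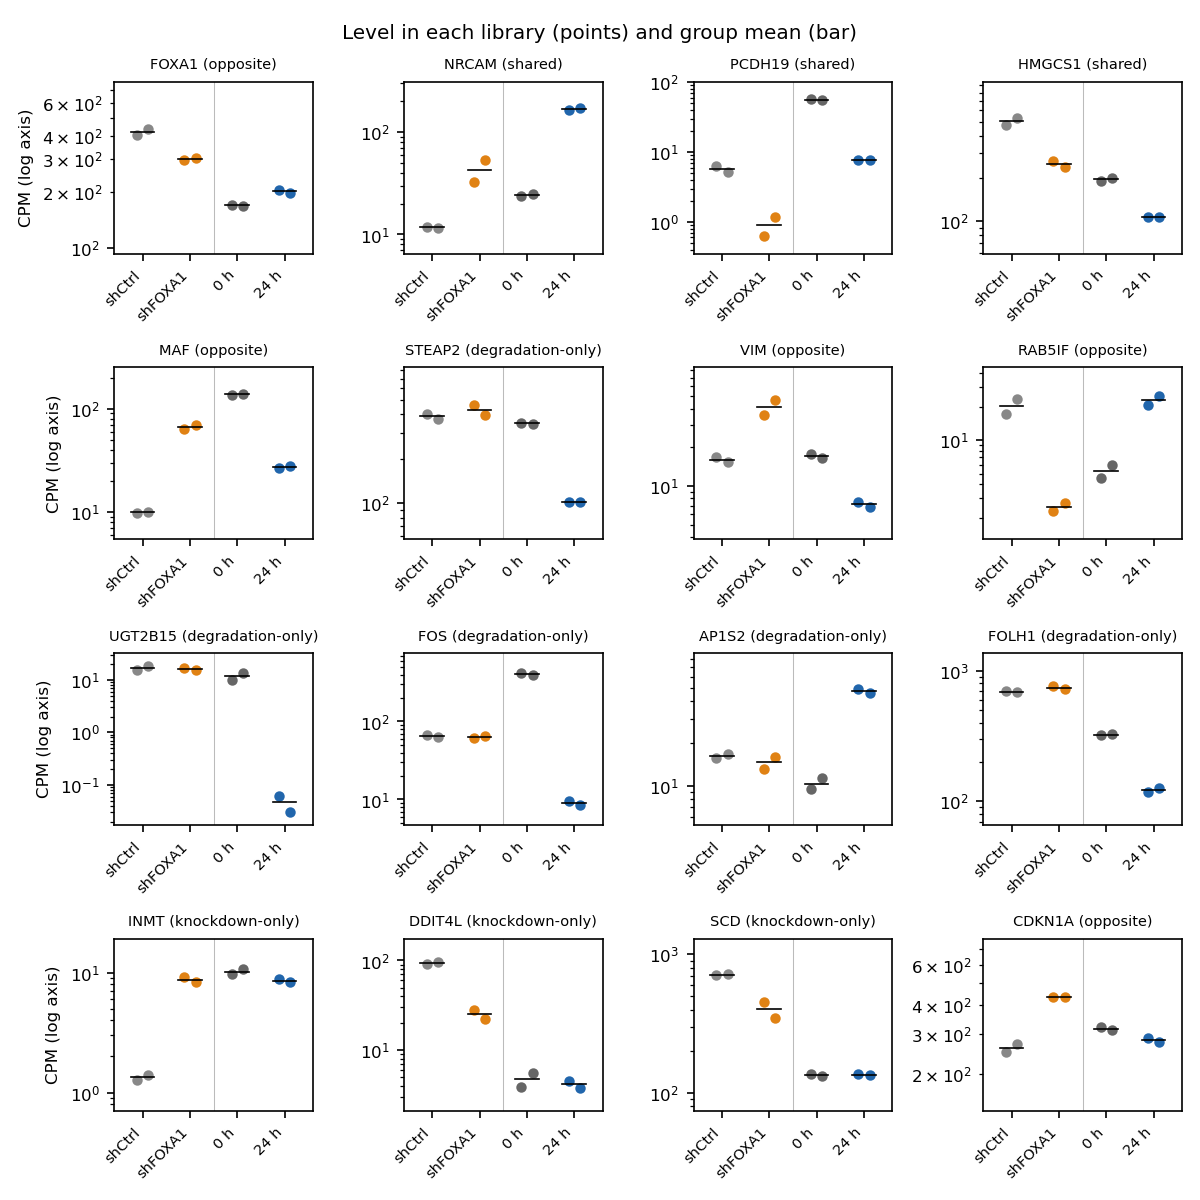
Each panel shows 1 gene with its level in CPM on a log axis in the 2 libraries of shCtrl, shFOXA1, 0 h and 24 h; every point is 1 library and the bar is the group mean. In MAF and VIM the hairpin pair rises where the degradation pair falls, in RAB5IF the reverse holds, and FOS is highest in the 0 h libraries, at 419 and 397 CPM.

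Degradation-only genes that fell included factors and enzymes that were nearly lost at 24 h. FOS and FOSB, subunits of the AP-1 factor, and EGR3, a zinc finger factor, are immediate early genes, switched on within minutes by growth factor signals. FOS was at 419 and 397 CPM at 0 h, 9.54 and 8.42 CPM at 24 h, 66.8 and 62.3 CPM in shCtrl and 60.8 and 64.6 CPM in shFOXA1. The hairpin groups overlapped, and the 0 h libraries stood far above the other 6. FOS fell by 5.51 ± 0.056 at 24 h (adjusted p = 5.31e-45), its knockdown change was -0.04 ± 0.069 (adjusted p = 0.759), and the difference was -5.46 ± 0.094 (adjusted p = 1.57e-19). FOSB went from 383 and 380 CPM to 3.07 and 3.32 CPM at 24 h and EGR3 from 196 and 188 CPM to 1.39 and 2.03 CPM, with knockdown changes of -0.34 ± 0.13 and -0.30. UGT2B15, an enzyme that inactivates androgens by glucuronidation, fell from 10.0 and 13.8 CPM to 0.0620 and 0.0307 CPM at 24 h, 822 counts against 3, a ratio of 258 (exact 95% interval 88.1 to 1260). In the hairpin cells it stayed at 15.7 and 18.1 CPM in shCtrl and 16.8 and 15.5 CPM in shFOXA1, a change of -0.06 ± 0.11 (adjusted p = 0.745). UGT2B15 has near-identical copies in its gene cluster, so its counts are uncertain. RNLS, which encodes renalase, had 133 counts at 0 h and 1 at 24 h (ratio 125, interval 22.1 to 4990). SPDEF, an ETS factor of the prostate luminal lineage, was at 42.9 and 39.7 CPM at 0 h and 2.32 and 1.84 CPM at 24 h, and at 91.4 and 97.1 CPM in shCtrl and 93.3 and 58.2 CPM in shFOXA1. It fell by 4.31 ± 0.11 at 24 h, while its knockdown change of -0.31 ± 0.30 did not pass (adjusted p = 0.591) and 1 shFOXA1 library lay within the shCtrl range.

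NDRG4, a member of a family first found as N-MYC downstream genes, was among the degradation-only genes that rose. It was at 36.9 and 35.9 CPM at 0 h and 143 and 138 CPM at 24 h, but at 25.3 and 24.9 CPM in shCtrl and 28.7 and 24.6 CPM in shFOXA1, where the groups overlapped. The rise was 1.94 ± 0.048, the knockdown change 0.09 ± 0.095 (adjusted p = 0.544) and the difference 1.86 ± 0.10 (adjusted p = 2.74e-11). AP1S2, a subunit of the clathrin adaptor AP-1, went from 9.37 and 11.3 CPM to 49.3 and 46.2 CPM at 24 h and had a knockdown change of -0.15 ± 0.12. EFNB2, an ephrin ligand, rose from 47.2 and 45.5 CPM to 230 and 224 CPM, with 27.9 and 26.8 CPM in shCtrl and 27.8 and 40.6 CPM in shFOXA1. SGK1, a kinase of salt and stress signalling, rose from 13.8 and 13.1 CPM to 54.4 and 53 CPM, with 1.21 and 1.36 CPM in shCtrl and 1.18 and 1.90 CPM in shFOXA1. The secreted Wnt inhibitor WIF1 rose by 1.26, with a knockdown change of -0.48 that did not pass. Some of these genes left their class when 1 shFOXA1 library was left out, in a fit whose spread came from the shCtrl pair alone. Without the first, the knockdown changes were -0.69 for SPDEF, 0.58 for EFNB2 and -1.0 for WIF1. Without the second, they were -0.30 for AP1S2 and -0.44 for FOSB. With all libraries kept, the knockdown change of FOSB passed under the GC and length correction (adjusted p = 0.0261). FOSB also left the class when both routes were called from the joint fit, and EFNB2 left it with no filter on low counts.

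Knockdown-only genes were fewer. INMT, an indolethylamine methyltransferase, was at 1.27 and 1.41 CPM in shCtrl and 9.16 and 8.32 CPM in shFOXA1, and at 9.73 and 10.6 CPM at 0 h and 8.77 and 8.39 CPM at 24 h. Only the shCtrl libraries were low. INMT rose by 2.71 ± 0.19 in the knockdown (adjusted p = 2e-06), its 24 h change was -0.25 ± 0.11 (adjusted p = 0.0638) and the difference was -2.95 ± 0.21 (adjusted p = 1.8e-09). DDIT4L, an inhibitor of mTOR signalling, was at 91.3 and 97.0 CPM in shCtrl and 28.1 and 22.4 CPM in shFOXA1, and at 3.92 and 5.62 CPM at 0 h and 4.58 and 3.81 CPM at 24 h, where the groups overlapped. It fell by 1.89 ± 0.096 in the knockdown (adjusted p = 1.31e-06), with a 24 h change of -0.19 ± 0.17 (adjusted p = 0.388). MICB, a ligand of the NKG2D receptor of natural killer cells, fell from 6.77 and 7.13 CPM to 2.21 and 2.28 CPM, and HRK, a pro-apoptotic BH3-only gene, from 1.81 and 1.76 CPM to 0.574 and 0.503 CPM, while their 24 h changes were 0.14 and 0.01. SERPINB8, a serine protease inhibitor, fell by 2.34 ± 0.26 in the knockdown and MESP1, a mesoderm factor, by 2.25. MSRB3, a methionine sulfoxide reductase, changed by -1.21, and LINC02266, LOH12CR2, GRM4, TP53TG3D and CLXN were the named genes that rose. The difference was lost for MESP1 with limma voom and all libraries kept (adjusted p = 0.0868). It was also lost without the second 24 h library (a difference of 1.36), the second shCtrl library (1.64) or the first 0 h library (1.58). GRM4, a metabotropic glutamate receptor, lost its difference without the second shCtrl library (0.0671) or any of 3 tagged libraries (0.0516 to 0.0564), and TP53TG3D, which has near-identical copies, lost its knockdown call without the first shCtrl library (0.136). Its difference was lost without that library (0.0972), the second 0 h library (0.0885) or the first 24 h library (0.0682). The knockdown calls of MSRB3 and LINC02266 were lost without the first or second shCtrl library. The changes were then -1.087 and -1.325 for MSRB3 and 4.451 and 5.285 for LINC02266. The difference of MSRB3, 1.51 with all libraries, was lost without the first shCtrl library (1.39), the first 0 h library (1.29) or the second 24 h library (1.13).

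Forkhead recognition sequences were looked up in the promoters of these genes, as printed in the RefSeq promoter table for the build GRCh38.p14, which is not the build of the counts. The search was for TGTTTAC or TGTTTGC on either strand in the 250 bases before each start. Of 57 named genes 43 had a promoter in the table, and 5 of these held a match: UGT2B15, LRRC26, BTG1-DT, FOXA1 and NDUFAF8. The share was 6.33% of 12905 tested genes with a promoter, where a match at any start of the gene counted. It was 6.09% of all 35116 promoters in the table, each start counted singly. It ran from 4.75% in knockdown-only genes that rose to 8.62% in opposite genes higher at 24 h, with 6.01% and 5.52% in shared genes that rose and fell and 7.49% and 6.30% in degradation-only genes. A match is a description of letters and not a bound site. The 3 windows below are shown because they belong to the targeted gene, an opposite gene and the degradation-only gene with the steepest loss of counts named above, and their capitals mark the forkhead match.
FOXA1, chr14:37595438-37595499, minus strand: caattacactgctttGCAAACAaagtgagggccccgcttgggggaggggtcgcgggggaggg
LRRC26, chr9:137170079-137170165, minus strand: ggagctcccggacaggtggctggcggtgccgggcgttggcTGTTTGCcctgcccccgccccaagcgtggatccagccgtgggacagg
UGT2B15, chr4:68670789-68670875, minus strand: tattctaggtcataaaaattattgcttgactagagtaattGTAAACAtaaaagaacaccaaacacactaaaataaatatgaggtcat

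Genes of cell division fell by both routes, and further at 24 h. List counts, here and below, stand beside shares over all genes tested of 21.0% higher and 23.3% lower at 24 h. In the knockdown these shares were 10.5% and 11.2%. Of 32 tested genes of DNA replication and the G1 to S transition, 32 fell at 24 h, 28 fell in the knockdown and the 24 h change was the lower one for 29. Their median changes were -1.60 and -0.44, against 0.003 and 0.018 over all genes tested. RRM2, the small subunit of ribonucleotide reductase, was at 194 and 197 CPM at 0 h and 36.7 and 38.0 CPM at 24 h, and at 264 and 275 CPM in shCtrl and 221 and 199 CPM in shFOXA1. Each depleted pair was below its control pair. RRM2 fell by 2.39 ± 0.046 and 0.35 ± 0.065, a difference of -2.03 ± 0.080 (adjusted p = 2.12e-13). MCM2, a subunit of the replicative helicase, fell by 2.00 ± 0.049 and 0.50 ± 0.058, CDC6, which loads that helicase, by 2.49 ± 0.074 and 0.67 ± 0.074, and PCNA, the sliding clamp, by 1.63 ± 0.046 and 0.36 ± 0.064. The summed level of the list went from 2326 and 2351 CPM to 949 and 956 CPM at 24 h and from 4459 and 4536 CPM to 3501 and 3279 CPM in the knockdown. In bulk samples fewer dividing cells and less RNA per cell cannot be told apart.

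Of 32 mitosis genes, 31 fell at 24 h and 32 in the knockdown, with medians of -0.80 and -0.44. The difference passed for 19 of them, lower at 24 h for 17. CDK1, the mitotic kinase, fell from 133 and 137 CPM to 50.5 and 49.2 CPM at 24 h, a change of -1.44 ± 0.046. In the knockdown it went from 149 and 161 CPM to 136 and 125 CPM, a change of -0.25 ± 0.066 (adjusted p = 0.0168). UBE2C, AURKB and NUSAP1, which act in chromosome segregation and mitotic exit, fell by 0.91, 1.17 and 0.83 at 24 h and by 0.23, 0.33 and 0.22 in the knockdown. CENPA, the centromeric histone, was knockdown-only: it fell by 0.88 ± 0.12 there and its 24 h change was -0.03 ± 0.11 (adjusted p = 0.867). Without the second shCtrl library the knockdown calls dropped to 16 of the replication list and 16 of the mitosis list, and without the first to 22 and 23. CDK1, UBE2C, AURKB and NUSAP1 lost their knockdown call without the first or the second, and CDK1 and NUSAP1 also with the GC and length correction (adjusted p from 0.0757 to 0.449), and RRM2 and PCNA without the second (0.0904 and 0.0757).

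Most of the tested genes of cholesterol and fatty acid synthesis fell by both routes. Of 29 tested genes, 22 fell at 24 h and 23 in the knockdown, 20 were shared, and the medians were -0.39 and -0.57. The difference was higher at 24 h for 7 and lower for 1, and was not called for 21. HMGCS1, HMG-CoA synthase of the mevalonate pathway, was at 191 and 203 CPM at 0 h, 106 and 108 CPM at 24 h, 478 and 533 CPM in shCtrl and 266 and 241 CPM in shFOXA1. Both depleted pairs were well below their controls. HMGCS1 fell by 0.88 ± 0.042 and 0.99 ± 0.071, and the difference of 0.12 ± 0.085 did not pass (adjusted p = 0.365). SQLE, squalene epoxidase, fell by 1.05 ± 0.052 and 1.04 ± 0.095 (difference adjusted p = 1). SCD, stearoyl-CoA desaturase, was at 137 and 133 CPM at 0 h, 137 and 134 CPM at 24 h, 709 and 721 CPM in shCtrl and 454 and 349 CPM in shFOXA1, and so was lower in the knockdown alone. HMGCS1, SQLE and SCD were chosen after their values were seen. SREBF1, which encodes a transcription factor of lipid synthesis, was opposite, with changes of 0.59 ± 0.051 and -0.40 ± 0.084. MVD, mevalonate diphosphate decarboxylase, fell less at 24 h (-0.33 ± 0.058) than in the knockdown (-0.82 ± 0.065). The later enzymes LSS and EBP changed by 0.23 and 0.03 at 24 h and by -0.17 and -0.36 in the knockdown, of which the 24 h value of LSS and the knockdown value of EBP passed. Knockdown calls of SREBF1 (adjusted p = 0.0762 and 0.0889) and EBP (0.0626 and 0.0757) were lost without 1 shCtrl library.

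The unfolded protein response raises chaperones and folding enzymes of the endoplasmic reticulum. Of 24 tested genes of this response, 18 fell at 24 h and 18 fell in the knockdown, and 16 fell in both, with medians of -0.36 and -0.32. HSPA5, the chaperone BiP, was at 1409 and 1418 CPM at 0 h and 966 and 989 CPM at 24 h, and at 1517 and 1621 CPM in shCtrl and 1248 and 1249.9 CPM in shFOXA1. Both depleted pairs were below their controls, by 0.54 ± 0.033 and 0.33 ± 0.059 on the log2 scale. XBP1, a transcription factor of the response, was at 115 and 124 CPM at 0 h and 101 and 99.6 CPM at 24 h, and at 120 and 133 CPM in shCtrl and 60.6 and 63.9 CPM in shFOXA1. It fell by 0.26 ± 0.044 at 24 h and by 1.02 ± 0.068 in the knockdown, a difference of 0.77 ± 0.084 (adjusted p = 8.67e-07), and its 24 h call was lost with the GC and length correction (adjusted p = 0.288). DERL3, a factor of protein export from the reticulum, was degradation-only (-1.20 ± 0.057 against -0.20 ± 0.075), and CRELD2 was knockdown-only (0.08 ± 0.038 against -0.52 ± 0.069). PDIA4, a disulfide isomerase, fell by 0.85 ± 0.036 and 0.33 ± 0.064. Without the second shCtrl library 5 of the list were called lower in the knockdown, and HSPA5 and PDIA4 were not (adjusted p = 0.123 and 0.124). Without the first, 12 were. With the GC and length correction 5 rose and 15 fell at 24 h.

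The promoters of this list were searched for the endoplasmic reticulum stress element, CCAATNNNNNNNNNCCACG on either strand, a search chosen after the values were seen. It was found in 7 of the 21 genes with a promoter (33.3%), against 18 of 12905 tested genes (0.139%) and 26 of 35116 single promoters (0.074%). The genes were listed for this response, so that share describes the list and not the changes. By class the share was 0.644% in shared and 0.664% in knockdown-only genes that fell, and 0.437% in opposite genes lower at 24 h. It was 0 in the other classes, the degradation-only genes among them. The 7 genes of the list were HSPA5, HSP90B1, XBP1, CALR, CANX and PDIA6, which fell in both routes, and CRELD2, which fell in the knockdown alone. The knockdown calls of CALR, CANX and PDIA6 were lost without the first or second shCtrl library, and that of CALR also with the replicate block (adjusted p from 0.107 to 0.317 over these settings), and those of HSPA5 and HSP90B1 without the second (0.123 and 0.126). The 24 h call of CANX was lost without the second 0 h library (0.0506) or with the GC and length correction (0.825). The 3 windows below, from GRCh38.p14, show the element in capitals for a shared gene, a gene that fell further in the knockdown and the knockdown-only gene. In CRELD2 it lies on the opposite strand.
HSPA5, chr9:125241351-125241449, minus strand: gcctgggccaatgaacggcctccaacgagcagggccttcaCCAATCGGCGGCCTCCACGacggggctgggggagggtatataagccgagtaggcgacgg
XBP1, chr22:28800570-28800661, minus strand: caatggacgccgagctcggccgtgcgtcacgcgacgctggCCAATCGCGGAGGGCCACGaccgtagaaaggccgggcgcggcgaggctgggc
CRELD2, chr22:49918514-49918612, plus strand: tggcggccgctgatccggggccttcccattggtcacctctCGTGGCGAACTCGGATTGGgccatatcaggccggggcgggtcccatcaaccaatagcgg

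Genes of the ATF4 response, which covers amino acid and one-carbon synthesis, were lower for 21 of 30 at 24 h, for 22 in the knockdown and for 16 in both, with medians of -0.42 and -0.57. The difference was higher at 24 h for 10 of them and lower for 3. MTHFD2, a mitochondrial enzyme of one-carbon metabolism, fell by 1.28 ± 0.051 and 0.64 ± 0.061. CEBPB, described above, and NUPR1, a small stress-response protein, were the 2 opposite genes of the list. TRIB3, a pseudokinase induced by ATF4, was knockdown-only, with 43.2 and 39.3 CPM at 0 h, 42.0 and 39.9 CPM at 24 h, 117 and 133 CPM in shCtrl and 75.6 and 67.1 CPM in shFOXA1. Its change was -0.02 ± 0.061 at 24 h and -0.81 ± 0.077 in the knockdown. The knockdown call of NUPR1 was lost without the first or second shCtrl library or with DESeq2 (adjusted p from 0.0564 to 0.341), and 11 of the list remained called lower without the second shCtrl library. Heat shock proteins were lower for 17 of 23 at 24 h and for 11 in the knockdown, with 9 shared, and the 11 became 2 without the first shCtrl library and 0 without the second. HSPA8 and HSP90AB1, abundant cytosolic chaperones, fell at 24 h by 0.57 ± 0.033 and 0.37 ± 0.033, with knockdown changes of -0.02 and 0.05 that did not pass.

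Ribosome biogenesis separated the routes. Of 29 tested MYC target and ribosome biogenesis genes, 28 fell at 24 h, while 4 rose and 4 fell in the knockdown. The medians were -0.48 and 0.011 (the second was -0.04 with the GC and length correction), the difference was lower at 24 h for 25, and 19 were degradation-only. NOLC1, a nucleolar chaperone, was at 359 and 348 CPM at 0 h and 195 and 199 CPM at 24 h, and at 408 and 425 CPM in shCtrl and 423 and 399 CPM in shFOXA1. The hairpin groups overlapped. NOLC1 fell by 0.85 ± 0.038 at 24 h and had a knockdown change of -0.01 ± 0.060 (adjusted p = 0.903), a difference of -0.83 ± 0.070 (adjusted p = 2.58e-08). NOP56, a core protein of small nucleolar ribonucleoproteins, fell by 0.72 ± 0.038 at 24 h and LDHA, lactate dehydrogenase A, by 0.80 ± 0.037, and neither passed in the knockdown. MYC itself was opposite: it was at 198 and 187 CPM at 0 h, 163 and 158 CPM at 24 h, 240 and 222 CPM in shCtrl and 361 and 333 CPM in shFOXA1. It fell by 0.26 ± 0.040 and rose by 0.59 ± 0.066. The summed level of the list was 6145 and 6163 CPM in shCtrl and 6378 and 6182 CPM in shFOXA1, and it went from 6190 and 6185 CPM to 4295 and 4440 CPM at 24 h. Without the first shFOXA1 library 8 of the list fell in the knockdown.

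Targets of p53 had medians on either side of 0 in the 2 routes, and a minority of them were opposite genes. Of 28 tested p53 targets 16 fell and 2 rose at 24 h, 13 rose and 2 fell in the knockdown, and 7 were opposite, with medians of -0.15 and 0.18. CDKN1A, the cell cycle inhibitor p21, was at 321 and 311 CPM at 0 h, 288 and 278 CPM at 24 h, 249 and 272 CPM in shCtrl and 432 CPM in both shFOXA1 libraries. It fell by 0.16 ± 0.037 and rose by 0.73 ± 0.062, a difference of -0.89 ± 0.073 (adjusted p = 1.66e-08). BTG2, an antiproliferative gene, fell by 0.31 ± 0.041 and rose by 0.71 ± 0.068. AEN, an exonuclease, and GDF15, a stress cytokine, were degradation-only, with 24 h changes of -0.85 and -0.71 and knockdown changes of 0.17 and 0.05. Without the second shCtrl library 4 p53 targets were called higher in the knockdown and 2 were opposite, without the first 5 and 3, and DESeq2 gave 3 opposite. With the GC and length correction 7 rose and 11 fell at 24 h.

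All 13 mitochondrially encoded mRNAs fell at 24 h and 8 rose in the knockdown, with medians of -0.37 and 0.22. MT-CO2, a subunit of cytochrome oxidase, was at 8457 and 8217 CPM at 0 h, 6824 and 6094 CPM at 24 h, 5623 and 5362 CPM in shCtrl and 6529 and 6828 CPM in shFOXA1. MT-ND2, a subunit of complex I, was degradation-only, with changes of -0.56 ± 0.032 and 0.14 ± 0.057. Leaving out the first or the second shCtrl library left 0 of the 13 called in the knockdown, and with the GC and length correction 9 fell at 24 h and 2 were opposite. Mitochondrial transcripts made up 8.33% and 8.11% of counts in shCtrl, 9.32% and 9.68% in shFOXA1, 10.9% and 10.6% at 0 h and 8.92% and 8.60% at 24 h. The part of that share in the other results was not tested.

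**Figure D3:**
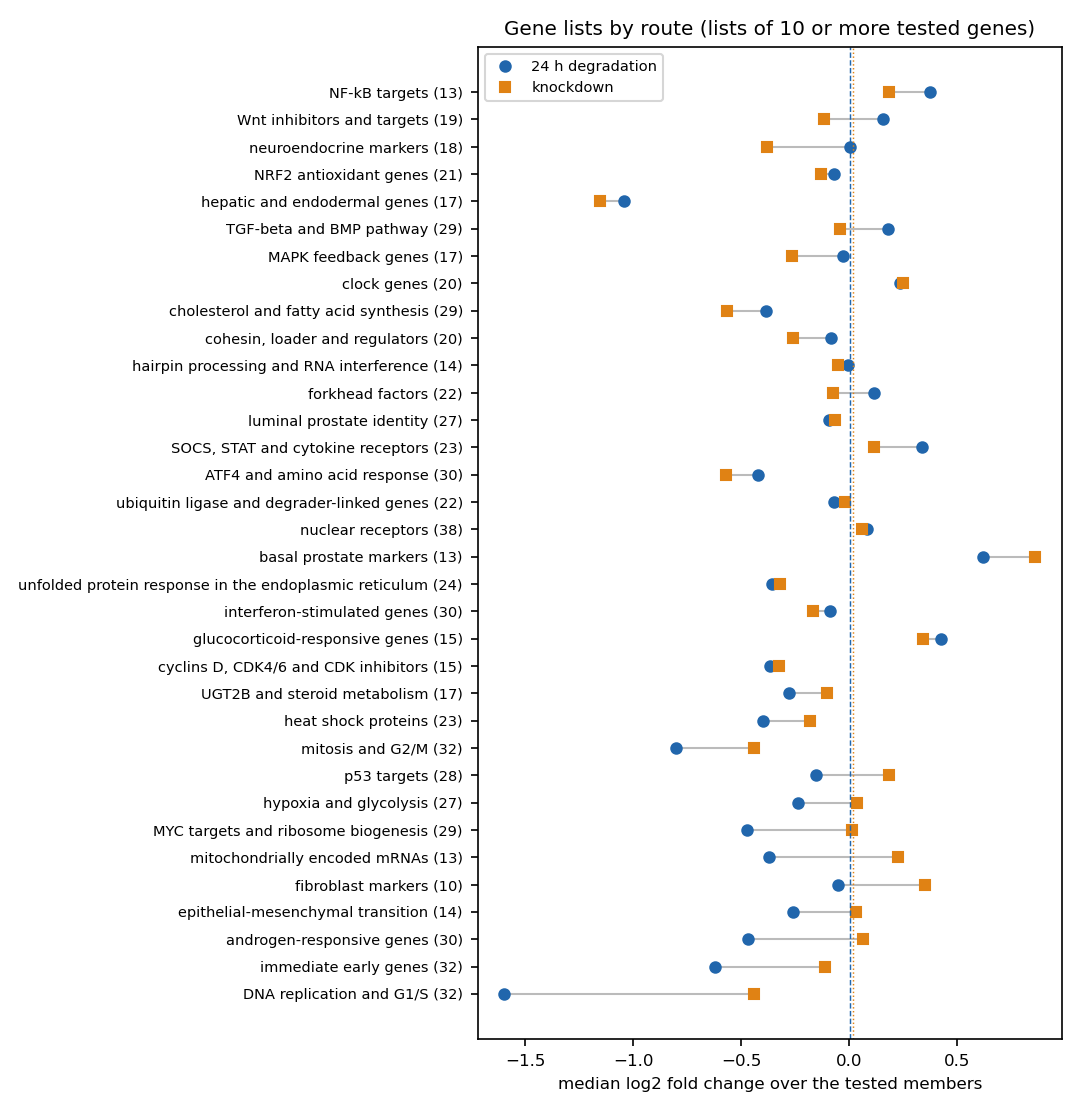
Median log2 change of each gene list with at least 10 tested members, with a blue circle for 24 h and an orange square for the knockdown; the dashed and dotted lines mark the medians of all genes, 0.003 and 0.018. The DNA replication list is at -1.60 and -0.44, the MYC and ribosome biogenesis list at -0.48 and 0.011, and the mitochondrial and p53 lists have their 2 markers on either side of 0.

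Immediate early genes also separated the routes. Of 32 tested, 25 fell and 4 rose at 24 h, and 6 fell and 5 rose in the knockdown. The difference was lower at 24 h for 21, and 13 were degradation-only. Beside FOS and FOSB, EGR1, a zinc finger factor, was at 429 and 407 CPM at 0 h, 23.7 and 25.2 CPM at 24 h, 120 and 117 CPM in shCtrl and 85.0 and 85.3 CPM in shFOXA1. It fell in both, by 4.10 ± 0.048 and 0.47 ± 0.060, a difference of -3.62 ± 0.078 (adjusted p = 2.48e-18). ATF3, a stress-induced factor, fell by 2.60 ± 0.050 at 24 h and by 0.27 ± 0.084 in the knockdown, and the second call was lost without the first or second shCtrl library or with DESeq2 (adjusted p from 0.0552 to 0.468). The summed level of the list was 4113 and 4055 CPM at 0 h, 2245 and 2228 CPM at 24 h, 1665 and 1680 CPM in shCtrl and 1721 and 1809 CPM in shFOXA1, so the 0 h libraries stood highest. Called falls in the knockdown numbered 2 and 3 without the first and second shCtrl library, and 10 without the second shFOXA1 library or with the GC and length correction. No library held for 24 h without degrader was analysed here, and the part of the 0 h culture state in these falls cannot be told apart from that of the degrader.

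Serum response elements, whose core is called the CArG box, drive several immediate early genes. A search for that box, chosen after the values were seen, matched 3 of the list's 23 genes with a promoter (13.0%: EGR1, EGR2 and SRF). The share was 1.41% of tested genes and 1.16% of all single promoters. The share in the list describes the list and not the changes. The EGR1 window from GRCh38.p14 is shown because EGR1 was the one of the 3 called in both routes, with 1 box in capitals.
EGR1, chr5:138465334-138465423, plus strand: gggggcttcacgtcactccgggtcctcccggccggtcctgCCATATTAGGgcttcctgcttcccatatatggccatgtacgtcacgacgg

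Feedback genes of the MAPK pathway, which runs from growth factor receptors through ERK, did not follow the immediate early genes. Of 17 tested, 5 rose and 7 fell at 24 h, and 2 rose and 7 fell in the knockdown. ETV5, an ETS factor induced by ERK signalling, was opposite, with 30.5 and 30.9 CPM at 0 h, 41.2 and 44.3 CPM at 24 h, 48.5 and 52.8 CPM in shCtrl and 26.4 and 22.4 CPM in shFOXA1. It rose by 0.47 ± 0.063 and fell by 1.05 ± 0.091. SPRY4, an inhibitor of the pathway, was also opposite (0.57 ± 0.12 and -0.92 ± 0.13). ETV1 was knockdown-only (-0.03 ± 0.11 and -1.25 ± 0.081), and EPHA2, an ephrin receptor, degradation-only (-1.53 ± 0.076 and -0.27 ± 0.11).

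Androgen-responsive genes split within the list. Of 30 tested, 20 fell and 7 rose at 24 h, and 4 fell and 9 rose in the knockdown, with medians of -0.47 and 0.06. STEAP2, a metalloreductase of prostate epithelium, fell from 349 and 347 CPM to 102 and 103 CPM at 24 h, with 401 and 374 CPM in shCtrl and 464 and 395 CPM in shFOXA1. RAB3B, a small GTPase of secretion, changed by -1.45 ± 0.068 and 0.40 ± 0.071, the second not called without the second shCtrl library (0.0866). KLK3, which encodes prostate-specific antigen, rose by 0.35 ± 0.040 at 24 h and by 0.78 ± 0.20 in the knockdown. The knockdown call was lost without the first or second shCtrl library. The 24 h call was lost with both routes called from the joint fit (adjusted p = 0.144). KLK3 was named after its values were seen. Without the second shCtrl library 4 of the list were called higher in the knockdown, and without the first or second shFOXA1 library 8 were called lower.

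Luminal markers other than these showed no common direction. Of 27 tested, 9 rose and 12 fell at 24 h, and 6 rose and 6 fell in the knockdown. FOLH1, prostate-specific membrane antigen, was at 321 and 327 CPM at 0 h, 118 and 126 CPM at 24 h, 695 and 685 CPM in shCtrl and 757 and 725 CPM in shFOXA1. It fell by 1.41 ± 0.040 at 24 h and its knockdown change of 0.11 ± 0.058 did not pass (adjusted p = 0.223). KRT19, a keratin of simple epithelia, rose by 0.41 ± 0.034 and 1.64 ± 0.076, and CLDN4, a tight junction protein, by 0.95 ± 0.041 at 24 h alone (knockdown change -0.15 ± 0.070, adjusted p = 0.162). Without the first or second shCtrl library 3 rose and 3 fell in the knockdown, and without the first shFOXA1 library 10 fell.

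Of 13 tested basal markers, 6 rose and 2 fell at 24 h and 3 rose and 3 fell in the knockdown. Their summed level went from 258 and 245 CPM to 377 and 363 CPM at 24 h and from 112 and 113 CPM to 156 and 201 CPM in the knockdown, while TP63, which defines basal cells, stayed at 0 or 1 count. CD44, a hyaluronan receptor, rose by 1.56 ± 0.045 and 1.08 ± 0.14, and LAMA3, a laminin chain, fell at 24 h from 72.0 and 66.2 CPM to 7.43 and 6.30 CPM (knockdown change -0.76 ± 0.29, adjusted p = 0.0773). Of 17 tested hepatic and endodermal genes, 9 fell at 24 h and 4 in the knockdown, with medians of -1.04 and -1.16. HNF4G, a nuclear receptor of endoderm, was degradation-only, with a 24 h change of -1.24 and a knockdown change of -0.10. ALB, serum albumin, had an unsteady value in the hairpin libraries, at 446 and 467 CPM in shCtrl and 68.1 and 18.3 CPM in shFOXA1, and its change of -3.39 ± 0.89 did not pass (adjusted p = 0.156). Neuroendocrine markers showed 3 higher and 4 lower of 18 at 24 h, and 1 higher and 6 lower in the knockdown. Without the first shFOXA1 library the knockdown calls became 7 higher for basal markers and 8 and 13 lower for hepatic and neuroendocrine genes, and without the first or second shCtrl library 1 and 2 neuroendocrine genes were lower.

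**Figure D4:**
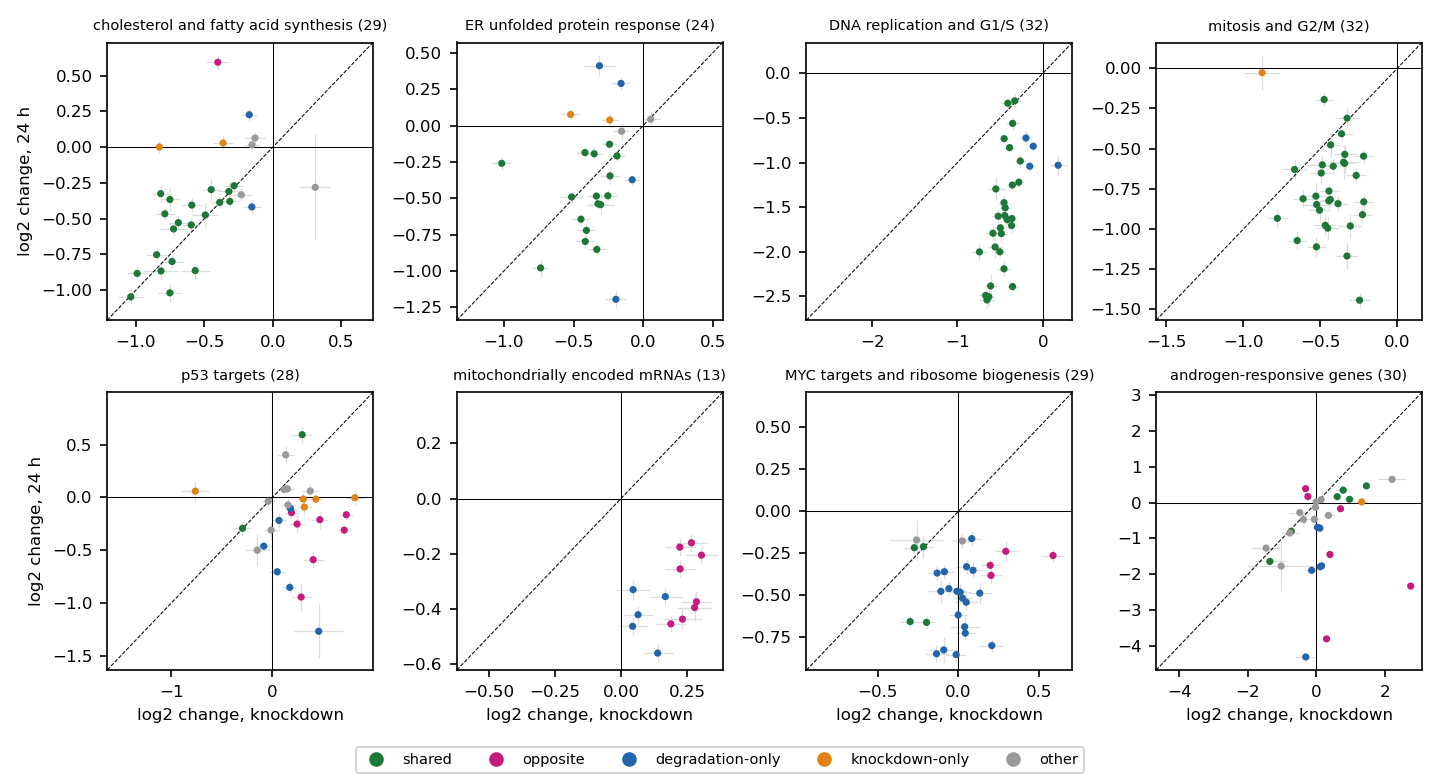
Each panel shows 1 gene list; every point is a tested member, with its knockdown log2 change on the horizontal axis, its 24 h log2 change on the vertical axis, SE bars and its class as colour, and a dashed line where the 2 changes are equal. Cholesterol genes lie about the dashed line, replication genes lie below it, and the mitochondrial mRNAs fall in the lower right, where the 24 h change is negative and the knockdown change positive or near 0.

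Cohesin and its loader were of interest to the study by its title. Of 20 tested genes, 3 rose and 9 fell at 24 h, 11 fell in the knockdown and 7 were lower in both, with medians of -0.09 and -0.26. ESCO2, the acetyltransferase of replicating cells, fell by 2.14 ± 0.088 and 0.55 ± 0.074, CDCA5, which encodes sororin, by 1.48 ± 0.072 and 0.56 ± 0.082, and ESPL1, which encodes separase, by 0.91 ± 0.057 and 0.42 ± 0.067. These 3 act in S phase and mitosis, whose gene lists fell beside them. NIPBL, the loader, was at 109 and 105 CPM at 0 h, 122 and 124 CPM at 24 h, 98.0 and 109 CPM in shCtrl and 86.1 and 95.5 CPM in shFOXA1. It rose by 0.19 ± 0.042 at 24 h (adjusted p = 0.000193), and its knockdown change of -0.18 ± 0.072 did not pass (adjusted p = 0.0881). Without the second shCtrl library 5 cohesin genes were called lower in the knockdown, and without the first 6. With the GC and length correction 7 rose and 8 fell at 24 h.

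TGF-beta and BMP pathway genes rose mainly at 24 h. Of 29 tested, 17 rose and 4 fell at 24 h, and 4 rose and 4 fell in the knockdown. The difference was higher at 24 h for 10 and lower for 3, and 8 were degradation-only genes that rose. ID2, an inhibitor of basic helix-loop-helix factors induced by BMP signals, was at 254 and 243 CPM at 0 h, 542 and 517 CPM at 24 h, 144 and 135 CPM in shCtrl and 142 and 137 CPM in shFOXA1. It rose by 1.08 ± 0.037 at 24 h, and its knockdown change of 0.00 ± 0.062 did not pass (adjusted p = 0.979), with a difference of 1.09 ± 0.074 (adjusted p = 9.69e-10). TGIF1, a repressor of SMAD signalling, was degradation-only (0.76 ± 0.070 and -0.11 ± 0.087). TGFB2, a ligand, fell from 46.5 and 48.9 CPM to 7.81 and 7.68 CPM at 24 h, and at under 1 CPM in all 4 hairpin libraries its knockdown rise (adjusted p = 0.0487) was lost without any 1 of 7 libraries (adjusted p from 0.0501 to 0.297). Without the first shFOXA1 library 7 of the list fell in the knockdown.

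Hypoxia and glycolysis genes showed the reverse lean. Of 27 tested, 13 fell and 5 rose at 24 h, 2 fell and 4 rose in the knockdown, and 11 were degradation-only genes that fell. VEGFA, the vascular growth factor, rose by 0.80 ± 0.042 and 0.22 ± 0.060, the second lost without the first or second shCtrl library or with the GC and length correction (adjusted p from 0.16 to 0.276). Of 22 tested forkhead genes, 8 rose and 6 fell at 24 h and 3 rose and 4 fell in the knockdown. FOXO1, a forkhead factor restrained by insulin signalling, was degradation-only, at 14.6 and 17.1 CPM at 0 h, 37.8 and 42.2 CPM at 24 h, 7.52 and 7.05 CPM in shCtrl and 5.40 and 7.31 CPM in shFOXA1 (1.33 ± 0.078 and -0.19 ± 0.17). Without the second shFOXA1 library 7 forkhead genes fell and 7 hypoxia genes rose in the knockdown.

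Genes tied to the tools themselves were counted as well. Over all genes tested 21.0% rose and 23.3% fell at 24 h, and 10.5% rose and 11.2% fell in the knockdown. The 24 h counts of the hairpin-processing and interferon lists lie near those shares. Of 14 tested genes of hairpin processing and RNA interference, 3 rose and 4 fell at 24 h, and 0 rose and 3 fell in the knockdown. Of 22 tested ubiquitin ligase and degrader-linked genes, 5 rose and 9 fell at 24 h, and 1 rose and 3 fell in the knockdown. CRBN, a ligase receptor that some degraders recruit, was at 39.4 and 41.7 CPM at 0 h and 47.6 and 45 CPM at 24 h (0.19 ± 0.059), with 0.13 ± 0.072 in the knockdown, and the difference did not pass (adjusted p = 0.67). FKBP1A, whose protein is the parent of the dTAG fusion domain, was at 217 and 215 CPM at 0 h and 176 and 161 CPM at 24 h (-0.36 ± 0.041), with a knockdown change of 0.18 ± 0.063 that did not pass (adjusted p = 0.0561). Interferon-stimulated genes, which foreign RNA can raise, were 6 higher and 7 lower of 30 at 24 h, and 4 higher and 8 lower in the knockdown, of which 2 were lower without the first or second shCtrl library. With the GC and length correction 8 degrader-linked genes rose and 5 fell at 24 h, and without the first shFOXA1 library 6 rose in the knockdown.

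The sizes of the classes that need a knockdown call moved most with the shCtrl and shFOXA1 libraries left out. With 1 library of a hairpin pair left out, the spread of that table's fit comes from the other pair alone. Knockdown calls lost or gained that way, here and above, cannot be told apart from that change of spread. Leaving out the second shCtrl library left 999 knockdown calls, 600 shared, 139 opposite and 212 knockdown-only genes, and leaving out the first left 1670, 984, 235 and 352. Leaving out the first shFOXA1 library gave 6752 knockdown calls, 3617 shared, 820 opposite and 1222 knockdown-only genes, and leaving out the second gave 5397, 2630, 903 and 1045. The degradation-only class went from 2449 genes to 1677 to 1755 without 1 tagged library, and to 2110 to 2843 without 1 hairpin library. With DESeq2 in place of edgeR, opposite genes numbered 403.

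**Figure D5:**
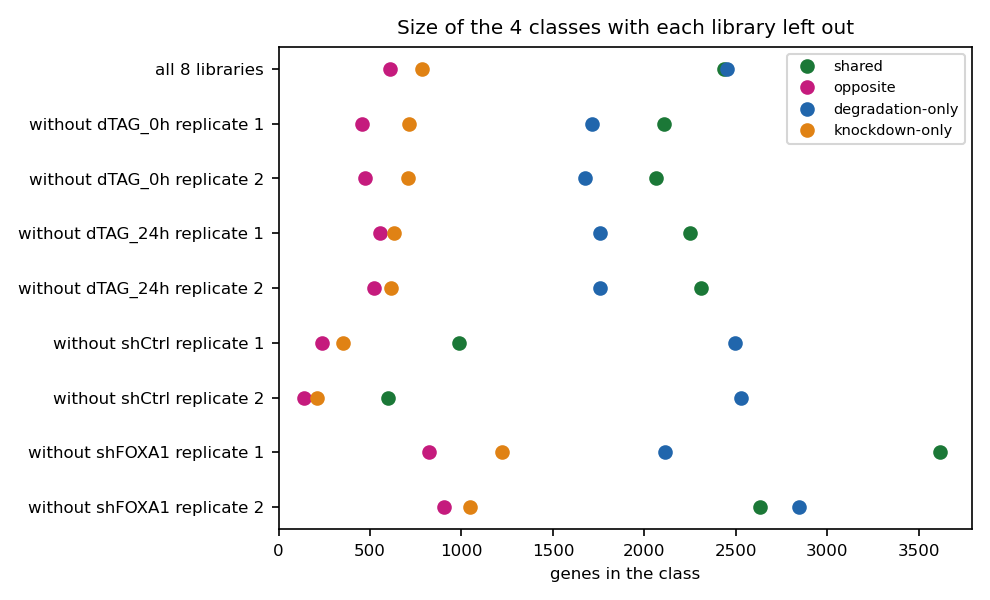
Number of genes in the shared, opposite, degradation-only and knockdown-only classes with all 8 libraries and with each library left out in turn. The shared class ranges from 600 genes without the second shCtrl library to 3617 without the first shFOXA1 library, and the degradation-only class from 1677 to 2843.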

How the data were processed

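RNA sequencing counts were analysed for 8 libraries in 4 groups taken from the labels. The deposited values are whole-number counts of reads per gene that were not normalized. STAR, featureCounts and DESeq2 are named in the submitters' processing notes with the build hg19, and versions, annotation and strand setting are not given in the sources used here. Reads of overlapping or antisense genes can therefore not be told apart. The tables were joined on Ensembl gene identifiers, which gave 57904 features and left 1 out. 

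Genes were kept by filterByExpr (20795) and tested with edgeR 4.0.16 in R 4.3.3: TMM scaling and its quasi-likelihood F test (glmQLFit, robust). Each route was fitted on its own 4 libraries (2 residual degrees of freedom), and the difference of changes as an interaction over the 8 (4 residual degrees of freedom). The threshold for a call was 0.05 on the p adjusted by Benjamini-Hochberg across every tested gene, and all adjusted p-values are edgeR's unless another tool is named. SEs are approximate, computed as the absolute log2 change over the square root of F. Ratios of few counts have exact binomial 95% intervals, which cover counting error only. Totals of 32.1 M to 36.5 M counts set the precision.

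Named genes were, for each direction, the 8 shared and the 8 opposite genes with the largest smaller change of the 2 routes, and the 6 route-only genes with the largest difference whose other change was under 0.5. They needed a symbol, a mean of at least 1 CPM in a group of each table, and groups that did not overlap in each route the class requires. FOXA1 and up to 4 called members of each list described, by adjusted p of the difference, were added. The members and gene lists were chosen with earlier results of these data known. Scripts were tested on simulated data. Alternatives covered DESeq2 1.42.0, limma 3.58.1 (voom), RLE and within-table scaling, other filters and thresholds, the joint fit, a replicate block, each library left out, and a GC and length correction from GENCODE 29 transcripts. TARP, NEFL, PECAM1, BOP1, ACACA, SDPR and SOCS7 were among the listed genes that matched no feature. Some named genes and list members are not reported here. The 6 libraries of the other experiments were not used here.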

Additional observations from a re-analysis of the deposited data

Results flagged for a closer look

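A total of 607 genes passed the test in both routes with opposite signs. Such a pair of calls nearly fixes the test of the difference, which each of these genes also passed. For the named ones the 24 h change exceeded the knockdown change by 6.20 for LRRC26, 5.12 for RAB5IF, 4.43 for C4orf48, 3.72 for C19orf81, 3.67 for SLIT2, 3.05 for GET4, 3.00 for CEBPB and 2.96 for NDUFAF8 on the log2 scale. FOXA1 mRNA itself belongs here, with a difference of 0.72.

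In the other direction the difference was -5.28 for SLC26A3, -5.07 for MAF, -3.17 for MAFTRR, -2.96 for GDNF, -2.86 for PREX2, -2.63 for VIM and -2.37 for DOCK8. For each of these genes the groups were apart in both tables, which was a condition for naming them. It held for 606 of all 607 opposite genes, as calls in both routes nearly require, and so adds no support. Groups of 2 libraries are too small to look for a library that stands apart within its group.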

How the results depend on the processing

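The 57 named genes, FOXA1 apart, were chosen for large changes and for groups that did not overlap in the routes their class required. A turned sign was therefore unlikely from the start. Their 134 called values kept their sign in every setting tried. They kept their call in 1026 of 1072 cases with 1 library left out and in 1436 of 1458 cases under the other settings. Counts moved more. At an adjusted p under 0.01 there were 3033 differences, 2374 knockdown calls, 1293 shared, 280 opposite and 426 knockdown-only genes. With a change of at least 2-fold required as well there were 1065 differences, 1566 calls at 24 h, 572 in the knockdown, 123 shared, 34 opposite, 531 degradation-only, 162 knockdown-only and 1131 one-route genes with no called difference. DESeq2 gave 403 opposite genes, and the cause was not tested. With 1 library left out the ranges were 3431 to 5940 differences, 6813 to 9301 calls at 24 h, 999 to 6752 in the knockdown, 600 to 3617 shared, 139 to 903 opposite, 1677 to 2843 degradation-only, 212 to 1222 knockdown-only and 3741 to 6060 one-route genes. Pearson r of the 2 changes was 0.055 with no filter on low counts and 0.351 with at least 1 CPM in 2 libraries of each table, Spearman rho was 0.126 and 0.379, and with 1 library left out r ran from 0.122 to 0.217 and rho from 0.197 to 0.286. The correction for GC content and length was chosen after seeing the data. It gave 1367 higher and 1176 lower degradation-only genes against 1016 and 1433, and it moved no all-gene median by over 0.1. Members changed more: 1913 of the 2434 shared and 449 of the 607 opposite genes kept their class and direction. So did 1870 of the 2449 degradation-only and 466 of the 783 knockdown-only genes.

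The replicate numbers did not pair the samples: deviations of libraries with the same number correlated at 0.02 in one table and 0.0208 in the other. With the replicate number as a block there were 4539 differences, 9842 calls at 24 h, 4640 in the knockdown, 2637 shared, 666 opposite, 2392 degradation-only, 670 knockdown-only and 4814 one-route genes, with r at 0.238 and rho at 0.29. Pairs of 2 libraries give few degrees of freedom, and low-count genes such as IP6K3 and LINC02266 are limited by counting error.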

Other observations

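Other gene groups were counted in the same way. The shares over all genes tested were 21.0% higher and 23.3% lower at 24 h, and 10.5% and 11.2% in the knockdown. Of 15 tested glucocorticoid-responsive genes 11 rose and 3 fell at 24 h, and 6 rose and 1 fell in the knockdown, with medians of 0.43 and 0.34. ANGPTL4, an inhibitor of lipoprotein lipase, was opposite: it went from 86.7 and 85.3 CPM to 43.3 and 42.7 CPM at 24 h and from 32.2 and 27.5 CPM to 43.0 and 42.7 CPM in the knockdown, so both depleted groups ended near the same level. Its knockdown call was lost without the second shCtrl library (adjusted p = 0.0638). DUSP1, a phosphatase of MAP kinases, was degradation-only (-1.03 ± 0.057 and 0.11 ± 0.087). Of 23 SOCS, STAT and cytokine receptor genes 13 rose and 4 fell at 24 h, and 6 rose and 1 fell in the knockdown, where 2 rose without the second shCtrl library.

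Of 21 NRF2 antioxidant genes 5 rose and 9 fell at 24 h, and 2 rose and 6 fell in the knockdown. GCLM, the modifier subunit of the enzyme that starts glutathione synthesis, fell by 0.39 ± 0.067 at 24 h and by 1.42 ± 0.086 in the knockdown. TXNRD1, thioredoxin reductase, was knockdown-only (-0.07 ± 0.038 and -0.61 ± 0.064). Of 20 clock genes 10 rose and 5 fell at 24 h and 6 rose and 4 fell in the knockdown, and without the second shCtrl library 0 rose there. Of 10 tested fibroblast markers 1 rose and 2 fell at 24 h, and 2 rose in the knockdown.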
